A study of Mus musculus with 2 samples.

Results

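Angiogenic tip-like endothelial cells were examined in droplet single-cell RNA sequencing of mouse adductor muscle, taken on day 7 after the femoral artery had been tied off. The members were selected on detected marker genes, and 90 of 23001 filtered cells met the rule, 52 in the WT library and 38 in the Apoa1bp-/- library (called the knockout). A cell had to show at least 2 of the endothelial genes Pecam1, Cdh5, Egfl7, Cldn5 and Ptprb, and none of Ptprc, Pdgfra and Pdgfrb, which mark leukocytes, fibroblasts and mural cells. It also had to show at least 2 of 6 tip markers, Apln, Esm1, Pgf, Kcne3, Angpt2 and Cxcr4. Cells with 2 or more of the arterial genes Sema3g, Gja5, Gja4, Stmn2 and Hey1, or 2 or more of the venous genes Selp, Ackr1, Lrg1 and Vwf, were left out. Both groups had the same surgery, done on 4 Apoa1bp-/- mice and 4 control littermates, and all cells of the ischemic muscle freed by collagenase D were taken, in 1 library per genotype. The sources used here give neither the age of the mice, nor the kind of Apoa1bp-/- allele, nor whether the 4 mice were pooled. Genotype and library cannot be told apart, and no difference was tested. All intervals are exact at the 95% level and cover counting error only.

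Tip cells lead a growing vessel sprout. They extend filopodia along gradients of vascular endothelial growth factor (VEGF), rebuild the basement membrane, and through Dll4 activate Notch in the stalk cells behind them, which hold back from the tip fate. Apln (apelin), Esm1 (endocan), Pgf (placental growth factor), Angpt2 (angiopoietin-2, a ligand of the receptor Tek) and Cxcr4 (the receptor of Cxcl12) are widely used tip markers. Apoa1bp, now named Naxe, encodes AIBP, an apolipoprotein A-I binding protein known for speeding cholesterol efflux from endothelial cells and restraining angiogenesis.

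The values that chose the members are given as a description. Apln was the most widely detected marker, in 39 of 52 WT members (75%) and 31 of 38 knockout members (81.6%). Cxcr4 had a UMI (unique molecular identifier, 1 per captured transcript) in 35 WT and 20 knockout members, and Angpt2 in 30 WT and 20 knockout members. Pgf was seen in 20 WT and 12 knockout members, and Esm1 in 11 WT and 14 knockout members. Kcne3, a potassium channel subunit, was seen in 1 WT and 3 knockout members and contributed little to the choice. Outside the endothelial gate, Apln was detected in 1.3% of WT and 2.5% of knockout cells, whereas Cxcr4 was detected in 29.4% and 33.2%.

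**Figure D1:**
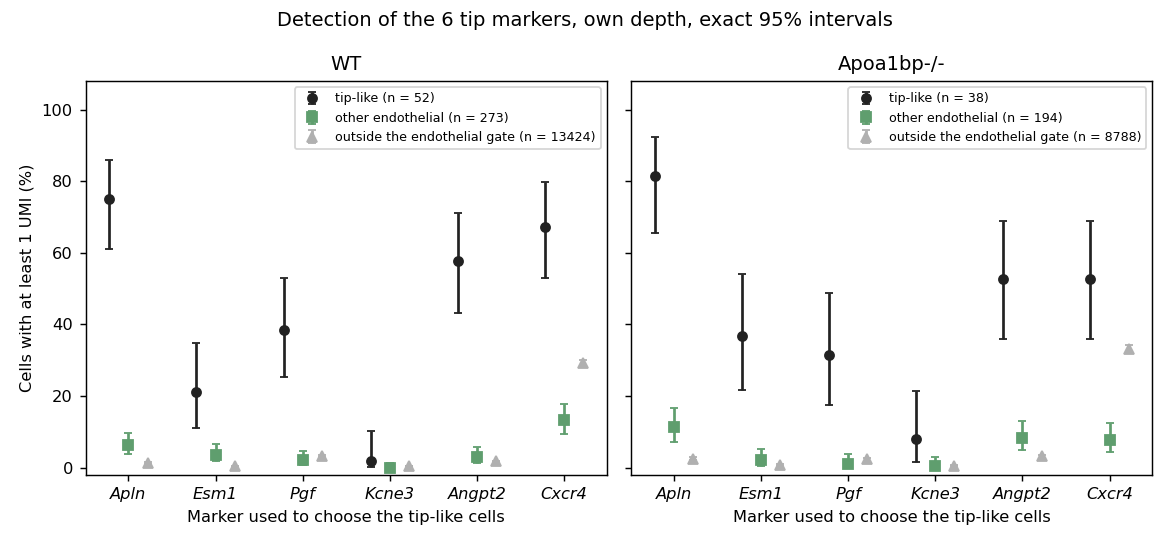
Percent of cells with at least 1 UMI of each of the 6 tip markers (y axis) in WT (left) and Apoa1bp-/- (right), for tip-like cells, other gated endothelial cells and cells outside the endothelial gate, with exact 95% intervals, at each cell's own depth. Apln leads in the tip-like cells at 75% and 81.6%, and Cxcr4 has the highest share outside the gate, 29.4% and 33.2%; the tip-like cells were chosen by these genes.

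Most members sat at the threshold of the rule. In WT, 29 members had exactly 2 tip markers, 15 had 3, 7 had 4 and 1 had 5. In the knockout, 24 had 2, 8 had 3, 4 had 4 and 2 had all 6. Just outside the rule, 77 WT and 60 knockout endothelial cells had 1 tip marker. The commonest pairs were Apln with Cxcr4, in 24 WT and 14 knockout members, and Apln with Angpt2, in 21 and 17. The arterial limit kept out 14 WT and 22 knockout cells with at least 2 tip markers, and the venous limit 3 and 5. Depth moved with the number of markers. WT endothelial cells with no tip marker had a median of 1552 UMIs, those with 1 had 3271 and those with 2 had 6826, and in the knockout these medians were 3836, 7089.5 and 12753.

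Marker levels summed over the members are given as UMIs per 1e6 UMIs of the group (CPM). Apln was at 419 and 249.9 CPM in WT and knockout members (0.597-fold, 0.477 to 0.746), with 30.9% of the knockout UMIs in 1 cell. Pgf was at 132 and 36.9 CPM (0.28-fold, 0.163 to 0.465) and Cxcr4 at 180.4 and 65.4 CPM (0.363-fold, 0.24 to 0.539). These 3 markers were lower in the knockout members. Angpt2 was at 87.9 and 58.7 CPM (0.668-fold, 0.41 to 1.09) and Esm1 at 39.3 and 58.7 CPM (1.49-fold, 0.814 to 2.84), with intervals that hold 1. All 6 markers chose the members, and a deeper cell meets the rule with a lower share of marker UMIs, so these levels are not used further.

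The libraries differed in depth, and the members with them. The filtered libraries held 13837 WT and 9164 knockout cells with medians of 4461 and 6825 UMIs. WT members had a median of 8046 UMIs (1327 to 24338) and knockout members 12585.5 (1719 to 66557), against 1913 and 4871.5 in other gated endothelial cells. The deepest cell gave 5.63% of the 432382 WT and 11.2% of the 596242 knockout member UMIs. Scrublet, a doublet caller, marked 10 of 52 WT and 0 of 38 knockout members. The libraries shared 43 barcode sequences, 1 of them a WT member, and no barcode was a member in both. Naxe, the targeted gene, had 24 UMIs in WT members (55.5 CPM, 35.6 to 82.6) and 0 in knockout members, at least 11-fold lower against a floor of 3 counts (5.03 CPM).

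The share of tip-like cells among gated endothelial cells depended on how depth was treated. At each cell's own depth they were 52 of 413 WT endothelial cells (12.6%, 9.55 to 16.2%) and 38 of 376 knockout endothelial cells (10.1%, 7.25 to 13.6%), a ratio of 0.803 (0.514 to 1.24). Among cells of at least 5000 UMIs, a minimum that does not make the libraries equal in depth, 36 of 121 WT (29.8%) and 33 of 231 knockout cells (14.3%) were tip-like, a ratio of 0.48 (0.29 to 0.792). Thinning each cell to 2000 UMIs dropped cells with fewer UMIs, and the whole rule was then applied anew. Gated cells went from 413 to 339 in WT and from 376 to 393 in the knockout. Of these, 33 WT (9.73%) and 13 knockout cells (3.31%) were tip-like, a ratio of 0.34 (0.164 to 0.663). Over 5 further random draws that ratio lay between 0.323 and 0.601, with the interval below 1 in 4 of the 5. At 1000 UMIs, 14 of 394 WT and 5 of 405 knockout cells qualified, and further draws gave ratios from 0.451 to 1.11, with the interval below 1 in 0 of 5 and the ratio above 1 in 1 of 5. Without cells showing at least 3 markers of another cell type, 15 of 183 WT (8.2%) and 14 of 158 knockout cells (8.86%) were tip-like. The ratio was then 1.08 (0.483 to 2.4). Where the interval lay below 1, fewer tip-like cells, less marker RNA per cell and a different set of gated cells cannot be told apart. Whether the share differs between the genotypes was not tested.

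**Figure D2:**
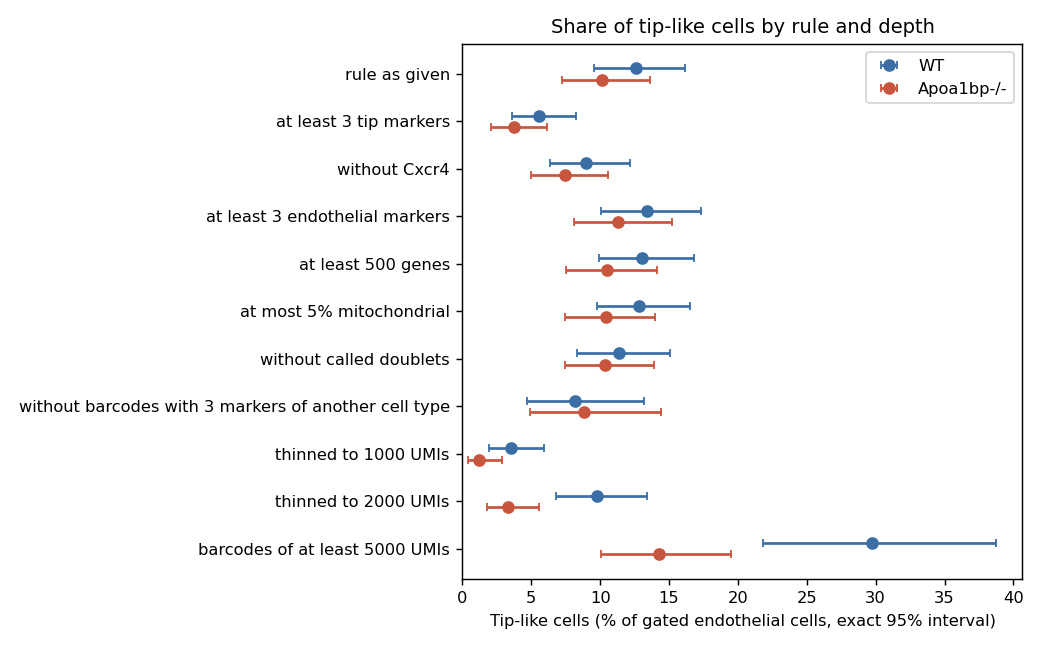
Tip-like cells as a percent of gated endothelial cells (x axis) in each library under the rule as given and under 10 other settings, with exact 95% intervals. The intervals overlap under the rule as given (12.6% and 10.1%) and are apart after thinning to 2000 UMIs (9.73% and 3.31%) and among cells of at least 5000 UMIs (29.8% and 14.3%).

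Tip-like cells were next set against the other gated endothelial cells of the same library, those neither tip-like, arterial nor venous. A gene was counted as higher or lower where its CPM ratio was at least 1.5-fold and the interval left out 1, among genes of at least 20 CPM in either group and at least 20 UMIs over both. In WT, 3.35% of 6859 genes were higher and 8.25% lower in tip-like cells. In the knockout, 5.58% of 6450 genes were higher and 6.93% lower. Of 6011 genes measured in both libraries, 52 (0.865%) were higher in both, 4 of them genes of the rule, and 137 (2.28%) were lower in both. Since tip-like cells were deeper than the rest, each ratio was also taken against other endothelial cells of at least 5000 UMIs, called deep cells here. Ratios given after thinning are not the same contrast at equal depth, because the rule was applied anew to the thinned cells. Members that then fell short on tip markers but still passed the gate counted among the other endothelial cells. Cells that lost an arterial, venous or excluding marker could also enter the groups compared.

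Tip and sprouting genes that the rule did not use were counted as higher more often than genes at large. The list was chosen with earlier results of these data known, so these counts are a description. Of the 20 on the list, 9 of 19 measured were higher and 1 lower in WT, and 5 of 18 were higher and 0 lower in the knockout. The list's median log2 ratio was 0.55 in WT and 0.44 in the knockout, beside -0.05 and 0.01 over all measured genes. Mcam, an adhesion molecule of endothelium and pericytes, was at 291 and 113 CPM in WT tip-like and other endothelial cells (2.57-fold, 1.96 to 3.39), and at 247 and 153 CPM in the knockout (1.61-fold, 1.3 to 2.0). Chst1, a carbohydrate sulfotransferase, was 2.26-fold and 2.23-fold higher in WT and knockout. Adm, the vasodilator peptide adrenomedullin, was 2.18-fold and 1.82-fold higher. These 3 genes were also higher against deep cells, Mcam 2.78-fold and 1.8-fold, Chst1 3.24-fold and 2.08-fold, and Adm 3.79-fold and 1.95-fold. Without cells showing 3 markers of another cell type the knockout log2 ratio of Adm turned to -0.45. Fscn1, which bundles actin in filopodia, was at 685 and 289 CPM in WT (2.37-fold, 1.99 to 2.81) and at 525 and 356 CPM in the knockout (1.48-fold, 1.28 to 1.7), just under the limit there. Igfbp3, an insulin-like growth factor binding protein, was at 303 and 213 CPM in WT (1.43-fold, 1.13 to 1.79) and 203 and 119 CPM in the knockout (1.7-fold, 1.33 to 2.16), counted in the knockout. Unc5b, a netrin receptor, was the gene counted as lower in WT (0.346-fold, 0.15 to 0.709), and it was at 0.972-fold against deep cells and turned to a log2 ratio of 0.49 after thinning to 1000 UMIs.

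The receptors and ligands of the sprouting pathways were not higher as a group, and their ratios depended on the depth of the cells compared. Of the VEGF receptor and ligand genes, 0 of 5 were higher and 3 lower in WT, and 0 of 6 higher and 1 lower in the knockout. Kdr, the main VEGF receptor, was at 518 and 645 CPM in WT (0.803-fold, 0.685 to 0.94) but 1.34-fold, 1.09 to 1.64 against deep cells. In the knockout Kdr was at 468 and 453 CPM (1.03-fold, 0.893 to 1.19). Flt1, a VEGF receptor that acts mainly as a decoy, was lower in both libraries (0.403-fold and 0.587-fold), yet at 0.89-fold, 0.697 to 1.14 in WT and 0.728-fold, 0.595 to 0.887 in the knockout against deep cells.

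Of the Notch pathway genes, 1 of 13 was higher and 3 lower in WT, and 1 of 12 higher and 3 lower in the knockout. Dll4, the Notch ligand of tip cells, was at 80.9 and 70.9 CPM in WT (1.14-fold, 0.731 to 1.76) and at 53.7 and 37.3 CPM in the knockout (1.44-fold, 0.894 to 2.28). Against deep cells it was 2.43-fold, 1.27 to 4.89 in WT and 1.98-fold, 1.17 to 3.35 in the knockout. Notch1 was lower in WT (0.611-fold, 0.44 to 0.836) but at 1.01-fold against deep cells. Notch4, an endothelial Notch receptor, was higher in knockout tip-like cells (2.05-fold, 1.42 to 2.95) and at 0.868-fold, 0.565 to 1.31 in WT. Cxcl12, the ligand of Cxcr4, was lower in both libraries (0.481-fold and 0.472-fold), and in WT it was at 1.05-fold against deep cells. Ackr3, which scavenges Cxcl12, was at 0.81-fold in WT and 1.66-fold in the knockout. Aplnr, the apelin receptor, was at 301 and 278 CPM in WT and 275 and 335 CPM in the knockout, not counted in either.

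Basement membrane genes were higher in WT tip-like cells. Of 14 genes 7 were higher and 1 lower in WT, against 1 higher and 2 lower in the knockout, with median log2 ratios of 0.58 and 0.28. Col4a1, a chain of the main basement membrane collagen, was at 2983 and 1937 CPM in WT tip-like and other endothelial cells (1.54-fold, 1.43 to 1.66) and at 2487 and 2092 CPM in the knockout (1.19-fold, 1.12 to 1.27). Lamb1, a laminin chain, was at 2.35-fold, 1.71 to 3.24 in WT and 1.23-fold, 0.944 to 1.6 in the knockout. Col15a1, a collagen of the basement membrane zone, was at 1.81-fold, 1.53 to 2.13 in WT and 1.14-fold, 1.01 to 1.29 in the knockout. Nid2, which links laminin and collagen, was higher in both libraries, at 97.1 and 35.4 CPM in WT (2.74-fold, 1.68 to 4.54) and 126 and 57.1 CPM in the knockout (2.2-fold, 1.58 to 3.06). Against deep WT cells the ratios were 1.62-fold for Col4a1, 2.5-fold for Lamb1, 1.7-fold for Col15a1 and 2.72-fold for Nid2. Lamb2 was lower in both (0.503-fold and 0.601-fold), and at 0.839-fold against deep WT cells. In the knockout the direction of Lamb2 was lost without cells showing 3 markers of another cell type (log2 0.0033) and after thinning to 1000 UMIs (0.037). Whether these ratios differ between the genotypes was not tested.

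More than 1 in 2 genes of capillary identity and fatty acid handling were lower in WT tip-like cells, and fewer in the knockout. Of the 14 genes 8 were lower in WT and 5 in the knockout, where the other 9 were not counted, and 0 were higher in either, with median log2 ratios of -0.82 and -0.27. Timp4, a metalloproteinase inhibitor, was at 134 and 603 CPM in WT (0.222-fold, 0.166 to 0.292) and 154 and 301 CPM in the knockout (0.513-fold, 0.404 to 0.644). Aqp1, a water channel, was at 661 and 2128 CPM in WT (0.311-fold, 0.273 to 0.352) and 537 and 913 CPM in the knockout (0.588-fold, 0.518 to 0.665). Against deep cells Timp4 was still lower (0.437-fold and 0.599-fold), and Aqp1 was at 0.654-fold and 0.738-fold, counted in WT. Cd36, a fatty acid translocase, was at 0.601-fold in WT and 0.798-fold in the knockout, counted in WT.

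The flow-responsive factors Klf2 and Klf4 were lower in both libraries, while their list of shear and nitric oxide genes was mixed in WT. Of its 8 genes measured in WT 2 were higher, Thbs1 among them, and 3 lower. In the knockout 0 of 6 were higher and 4 lower. The list's median log2 ratio was -0.43 in WT and -0.63 in the knockout. Klf2, which laminar flow induces, was at 264 and 894 CPM in WT (0.295-fold, 0.24 to 0.36) and 285 and 598 CPM in the knockout (0.477-fold, 0.402 to 0.563). Its relative Klf4 was at 0.298-fold, 0.209 to 0.416 in WT and 0.415-fold, 0.269 to 0.619 in the knockout. Both were also lower against deep cells, Klf2 at 0.557-fold and 0.537-fold, and Klf4 at 0.586-fold and 0.638-fold. Immediate early genes, a group of quickly induced transcripts, moved the same way: 8 of 12 were lower in WT and 6 of 12 in the knockout, with medians of -0.84 and -0.66. Their part in the lower Klf2 and Klf4 was not tested.

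**Figure D3:**
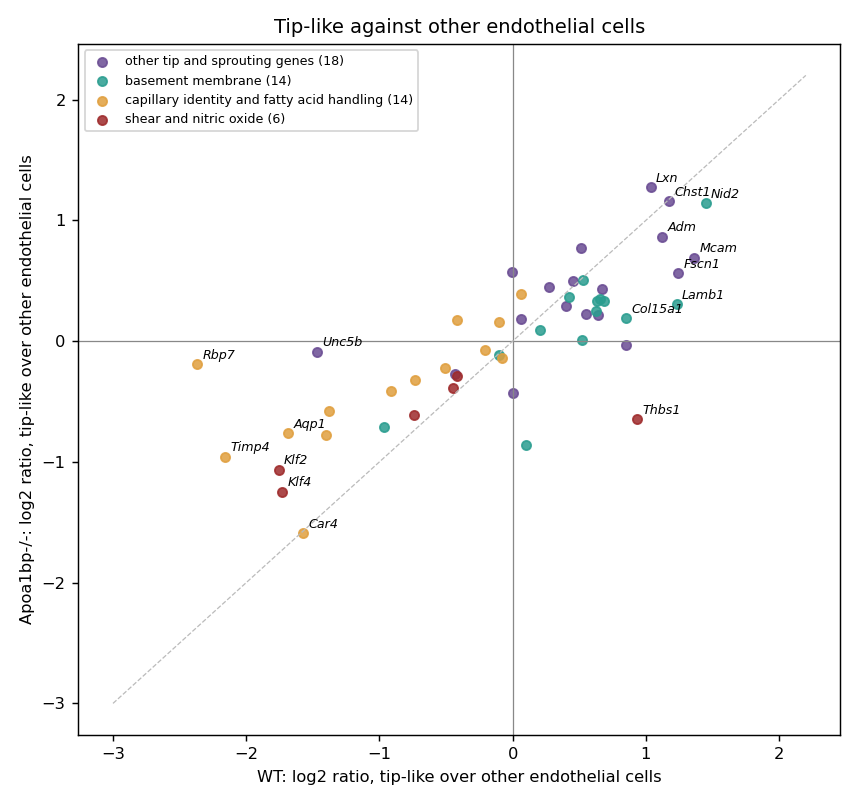
Log2 ratio of tip-like over other endothelial cells in WT (x axis) and Apoa1bp-/- (y axis) for 4 gene lists, 1 point per gene measured in both libraries, the dashed line marking equal ratios. Mcam, Chst1, Adm and Lxn lie above 0 in both libraries, Timp4, Aqp1, Klf2 and Klf4 lie below 0 in both, and Thbs1 is above 0 in WT and below 0 in the knockout.

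Over all genes, the 12 most clearly higher in both libraries, ranked by the smaller lower bound of the interval, were Chga, Nid2, Kit, Adamts7, Mest, H2ac8, Lxn, Vwa1, Tagln2, Pclaf, Rhoc and Nox4. Chga, the granule protein chromogranin A, was at 57.8 and 7.09 CPM in WT (8.16-fold, 3.27 to 24.3) and 134 and 30 CPM in the knockout (4.47-fold, 3.03 to 6.68), and was found in 7 WT and 11 knockout members. Kit, the receptor of stem cell factor, was at 180.4 and 82.7 CPM in WT (2.18-fold, 1.56 to 3.06) and 95.6 and 38.8 CPM in the knockout (2.46-fold, 1.66 to 3.65), and was found in 28 WT and 24 knockout members. Nox4, an NADPH oxidase, was at 55.5 and 4.72 CPM in WT (11.8-fold, 4.04 to 46.6) and 35.2 and 13.2 CPM in the knockout (2.67-fold, 1.36 to 5.32). Chga rested on few cells, and Kit was spread over more than 1 in 2 members. Vwa1, a matrix protein, was 2.13-fold and 1.88-fold higher, and Rhoc, a small GTPase, 1.95-fold and 1.61-fold. Against deep WT cells, Chga (4.86-fold), Nid2 (2.72-fold), Kit (2.53-fold), Vwa1 (3.31-fold), Rhoc (1.91-fold) and Nox4 (7.78-fold) were still counted. Mest (1.25-fold), H2ac8 (1.3-fold), Lxn (1.45-fold), Tagln2 (1.35-fold), Pclaf (1.26-fold) and Adamts7 (2.36-fold, 0.93 to 6.73) were not. H2ac8 turned lower in knockout members with at least 3 tip markers (log2 -0.88, with an interval that left out 1). In that setting, members with exactly 2 tip markers counted among the other endothelial cells. After thinning to 1000 UMIs the rule was applied anew, which left 14 WT and 5 knockout members. Most former members no longer met it, and those still in the gate counted among the other endothelial cells. The log2 ratio in the knockout was then -1.01 for H2ac8, -0.42 for Lxn, -0.54 for Tagln2 and -0.16 for Pclaf. In WT it was -2.26 for H2ac8. All these intervals held 1.

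The genes most clearly lower in both libraries were mostly genes of other cells. Tnnt3, Mylpf, Tnni2, Myl1, Eno3, Acta1 and Tnnc2 belong to muscle fibres, and Ccl21a, Mmrn1 and Nts to lymphatic endothelium. Fgl2 was also among them. After thinning to 1000 UMIs the knockout log2 ratio was above 0 for Myl1 (0.33), Acta1 (0.14) and Mmrn1 (0.31), with intervals that held 1. Mylpf was at 39.3 and 758 CPM in WT tip-like and other endothelial cells, and at 526 CPM outside the WT gate. Ccl21a was at 2.31 and 684 CPM in WT and 0 and 219 CPM in the knockout. The other endothelial cells thus held more muscle and lymphatic RNA. The muscle fibre list summed to 231 CPM in WT tip-like and 2801 CPM in other endothelial cells, and to 116 and 913 CPM in the knockout. The lymphatic list summed to 264 and 1265 CPM in WT and to 239.8 and 583 CPM in the knockout.

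The members of both genotypes were then compared with each other, as Apoa1bp-/- over WT. Of 6036 genes 369 (6.11%) were higher and 504 (8.35%) lower in knockout tip-like cells, with a median log2 ratio of -0.04 over all of them. The same ratio was taken in other endothelial cells, and its interval was apart from that of the tip-like cells for 4.28% of 5744 genes.

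Cell cycle genes were higher in knockout tip-like cells. Of 20 genes 12 were higher and 0 lower, with a median log2 ratio of 0.81. Stmn1, a microtubule regulator, was at 339.98 and 1019.7 CPM in WT and knockout members (3.0-fold, 2.5 to 3.62), and was found in 27 WT and 28 knockout members. Mki67, the proliferation antigen, was at 57.8 and 169 CPM (2.93-fold, 1.88 to 4.74), and Cdk1, the mitotic kinase, at 71.7 and 213 CPM (2.97-fold, 1.99 to 4.55). Birc5 (survivin, needed for cell division) was at 132 and 325 CPM and Cenpa (the centromere histone) at 74 and 209.6 CPM. Hmgb2, a chromatin protein, was at 679.95 and 1105 CPM (1.63-fold, 1.41 to 1.87). Genes of DNA replication were mostly not counted: Pcna, the polymerase clamp, was at 153 and 163 CPM (1.07-fold, 0.772 to 1.48), and the helicase subunits Mcm2 and Mcm3 were at 0.622-fold and 0.614-fold.

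For part of the list the genotype ratio was larger in tip-like than in other endothelial cells. The intervals were apart for 9 of 18 cell cycle genes measured in both classes, each time with the higher ratio in the tip-like cells. Hmgb2 had a ratio of 1.63-fold in tip-like cells and 0.794-fold, 0.711 to 0.886 in the others, and Cenpa 2.83-fold, 1.91 to 4.32 and 1.07-fold, 0.816 to 1.4. Within the knockout library 14 of 20 cell cycle genes were higher in tip-like than in other endothelial cells, against 2 of 20 in WT. Against deep cells, Stmn1 was at 1.94-fold in the knockout and 0.697-fold in WT, and Hmgb2 at 1.9-fold and 0.617-fold. After thinning to 1000 UMIs, with 5 knockout members left, Hmgb2 turned to a log2 ratio of -2.22 in the knockout, with an interval that held 1. Former members still in the gate then counted among the other endothelial cells.

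The cell cycle values were uneven over the cells. The list made up a median of 0.116% of a WT member's UMIs and 0.217% of a knockout member's, and reached 1% in 1 WT and 6 knockout members. The groups overlapped widely, with WT members from 0 to 1.44% and knockout members from 0.0434 to 1.96%. With members thinned to 1000 UMIs, Mki67 was detected in 1 WT and 2 knockout members and Top2a, a mitotic topoisomerase, in 7 and 4, which does not separate the genotypes. Stmn1 was detected in 12 of 52 and 17 of 38. Without cells showing 3 markers of another cell type, which left 15 WT and 14 knockout members, the list's median was 0.45 and Top2a was at -0.04 on the log2 scale.

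Interferon-induced genes were also higher in knockout members, and by similar ratios in the other endothelial cells. Of 17 genes 9 were higher and 0 lower, with a median log2 ratio of 0.82. Isg15, a ubiquitin-like protein, was at 162 and 558 CPM in WT and knockout members (3.45-fold, 2.66 to 4.53), beside 3.62-fold, 2.97 to 4.45 in other endothelial cells. Rsad2, the antiviral enzyme viperin, was at 43.9 and 171 CPM (3.89-fold, 2.37 to 6.73), beside 2.44-fold, 1.84 to 3.29. Bst2 (tetherin) was at 1235 and 2189 CPM and Irf7 (a transcription factor that amplifies interferon output) at 76.3 and 138 CPM. The intervals of both classes were apart for 1 of the 17 genes, Irf1, at 9.25 and 31.9 CPM (3.44-fold, 1.14 to 13.9) in tip-like cells and 0.515-fold, 0.345 to 0.765 in the others. With cells thinned to 1000 UMIs, Isg15 was detected in 15.4% of WT and 28.9% of knockout members, in 14.1% and 28.2% of other endothelial cells, and in 4.43% and 14.1% of cells outside the gate. The share was higher in the knockout library in all 3 groups of cells. The list made up a median of 0.528% of UMIs in WT members (0.162 to 2.58%) and 0.888% in knockout members (0.233 to 2.41%).

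The promoters of Isg15 and Rsad2 are shown because both genes were among the 12 most clearly higher in knockout members. They were searched for the interferon-stimulated response element, through which interferon acts on its targets, spelled as GAAA, any 2 bases, GAAA, on both strands, from 250 bases before to 50 after each start site. Of the 17 interferon-list genes 15 had a promoter in the RefSeq table (GRCm38.p6), and 10 of these 15 genes held the motif in at least 1 promoter, beside 1079 of all 27025 genes in the table (3.99%). Counted by promoter, of which a gene can have several, it was in 3.44% of 32851. Irf7 held no match in this window. Capitals mark the matches, 3 that overlap each other in Isg15 and 1 on the opposite strand in Rsad2.
Isg15, chr4:156200769-156201068, strand -: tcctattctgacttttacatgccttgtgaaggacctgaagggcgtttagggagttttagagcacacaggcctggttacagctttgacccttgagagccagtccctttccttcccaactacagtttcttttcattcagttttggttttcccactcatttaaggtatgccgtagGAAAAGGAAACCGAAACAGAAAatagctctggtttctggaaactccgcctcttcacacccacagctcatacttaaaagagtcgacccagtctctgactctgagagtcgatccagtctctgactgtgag
Rsad2, chr12:26456403-26456702, strand -: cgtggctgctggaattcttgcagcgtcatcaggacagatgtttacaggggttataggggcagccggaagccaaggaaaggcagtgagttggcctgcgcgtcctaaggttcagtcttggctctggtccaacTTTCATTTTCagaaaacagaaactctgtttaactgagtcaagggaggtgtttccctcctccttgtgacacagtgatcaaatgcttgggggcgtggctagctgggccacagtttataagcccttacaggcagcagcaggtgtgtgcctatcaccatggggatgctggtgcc
A match is a description of the letters and not evidence of binding.

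**Figure D4:**
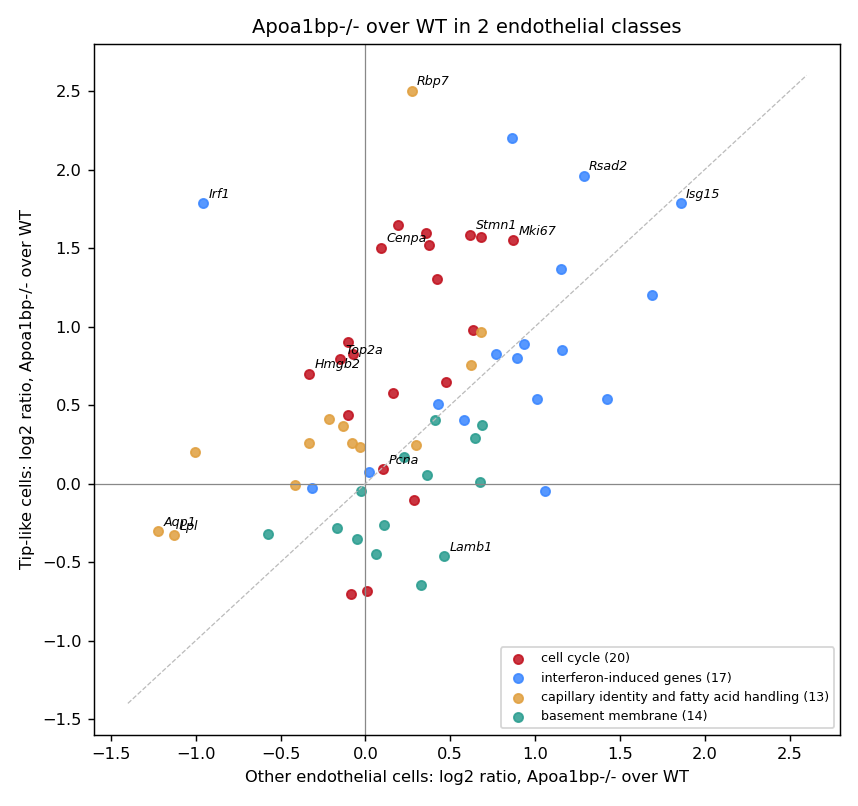
Log2 ratio of Apoa1bp-/- over WT in other endothelial cells (x axis) and in tip-like cells (y axis) for 4 gene lists, 1 point per gene, the dashed line marking equal ratios. Cell cycle genes such as Hmgb2 and Cenpa lie above the line, Isg15 lies close to it, and Lamb1 of the basement membrane lies below it.

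**Figure D5:**
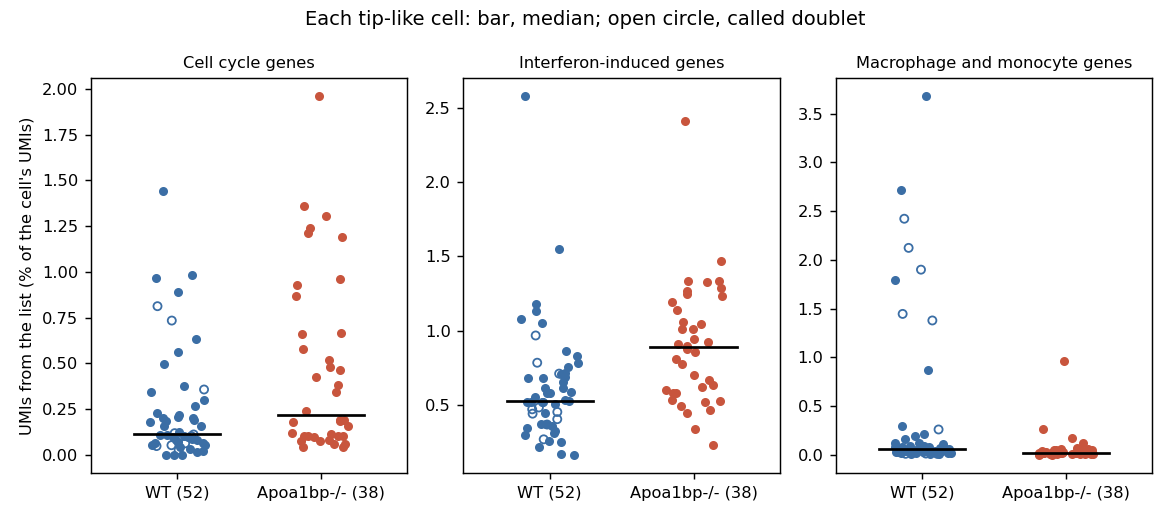
Percent of each tip-like cell's UMIs that came from the cell cycle, interferon-induced and macrophage lists (y axes), 1 point per cell, with the median as a bar and called doublets as open circles. The median cell cycle share is 0.116% in WT and 0.217% in knockout members with wide overlap, and macrophage genes reach 1% in 8 WT and 0 knockout members.

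In the capillary list 3 of 13 genes were higher and 0 lower in knockout members, with a median log2 ratio of 0.24. Fabp4, a fatty acid carrier, was at 14194 and 23933 CPM (1.69-fold, 1.64 to 1.74), and Tcf15, a transcription factor of capillaries, at 291 and 570.2 CPM (1.96-fold, 1.59 to 2.42). Rbp7, a retinol binding protein, was at 25.4 and 144 CPM (5.67-fold, 3.02 to 11.8), found in 8 WT and 16 knockout members, and at 1.21-fold, 0.962 to 1.52 in other endothelial cells. The intervals of tip-like and other endothelial cells were apart for 7 of the 13 genes, each time with the higher ratio in the tip-like cells, as for Aqp1 (0.811-fold, 0.69 to 0.955 against 0.429-fold, 0.399 to 0.461). In the basement membrane list 0 of 14 genes were higher or lower, with a median of -0.15. Its intervals were apart for 6 of 14 genes, each time with the lower ratio in the tip-like cells, as for Lamb1 (0.725-fold against 1.38-fold) and Col15a1 (1.01-fold against 1.6-fold).

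The pathways that position the tip were mixed, beside 6.11% of genes higher and 8.35% lower over all 6036 measured. Of 6 VEGF receptor and ligand genes 0 were higher or lower, with Kdr at 518 and 468 CPM (0.903-fold, 0.755 to 1.08) and Flt1 at 303 and 235 CPM (0.775-fold, 0.606 to 0.991). Of 11 Notch pathway genes 1 was higher, the Notch-modifying enzyme Lfng (3.08-fold, 1.01 to 12.6), and 3 were lower. This share of lower genes was above that over all genes, while the list's median log2 ratio was 0.07. Jag1, a Notch ligand, was at 43.9 and 8.39 CPM (0.191-fold, 0.0557 to 0.528), found in 15 WT and 3 knockout members, and Hes1, a Notch target, at 120.3 and 48.6 CPM (0.404-fold, 0.248 to 0.649). The third was Notch2, with its knockout UMIs in 1 cell. Dll4 was at 80.9 and 53.7 CPM (0.663-fold, 0.397 to 1.1). Cxcl12 was at 409 and 199.6 CPM (0.488-fold, 0.383 to 0.619), beside 0.496-fold in other endothelial cells, and Ackr3 at 1.11-fold. Of 19 tip and sprouting genes Lxn was higher (1.87-fold), and Plaur, the urokinase receptor (48.6 and 6.71 CPM), and Ccnd1, cyclin D1, were lower. Ccnd1 was at 548 and 324 CPM (0.591-fold, 0.486 to 0.717), found in 38 WT and 32 knockout members, and at 1.09-fold, 0.936 to 1.28 in other endothelial cells.

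Some genes of matrix proteolysis and of cholesterol handling were lower in knockout members, while most of both lists were not counted. Over all measured genes 8.35% were lower, with a median log2 ratio of -0.04. Of 11 matrix proteolysis genes 5 were lower and 0 higher, with a median of -0.80. Among the 5 were 2 inhibitors of proteolysis, Timp2 at 261 and 87.2 CPM (0.334-fold, 0.236 to 0.467) and Timp3 at 495 and 275 CPM (0.556-fold, 0.451 to 0.684). Of 10 genes of cholesterol efflux, synthesis and uptake 4 were lower and 0 higher, with a median of -0.59. Abca1, which hands cholesterol to apolipoprotein A-I, was at 210.5 and 114 CPM (0.542-fold, 0.39 to 0.75), found in 40 WT and 26 knockout members, and at 0.659-fold, 0.533 to 0.816 in other endothelial cells. Abcg1, which hands it to mature lipoproteins, was at 97.1 and 73.8 CPM (0.76-fold, 0.486 to 1.19). Mylip, which degrades the LDL receptor, was at 0.506-fold, and Srebf2, a regulator of cholesterol synthesis, at 0.418-fold. Apoe was at 4158 and 892 CPM, with 59% of its knockout UMIs in 1 cell, and without cells showing 3 markers of another cell type its log2 ratio turned to 0.58. In the shear and nitric oxide list 4 of 7 genes were lower and 0 higher in knockout members, with a median of -0.94. Its gene Klf4 turned to a log2 ratio of 0.15 with at least 3 tip markers, with an interval that held 1. The medians had wide bounds that held 0, -1.66 to 0.03 for matrix proteolysis, -1.24 to 0.19 for cholesterol and -5.08 to 0.11 for shear.

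Markers of other cells moved with these values. The macrophage and monocyte list summed to 3656 CPM in WT and 1295 CPM in knockout members, with 6 of 6 measured genes lower, and 0 of 10 markers were at 0 in WT and 1 of 10 in the knockout. A single cell gave 83.3% of its knockout UMIs, and 17.1% of its WT UMIs came from 1 cell. The list made up a median of 0.0568% of the UMIs in WT and 0.022% in knockout members. It reached 1% of the UMIs in 8 WT and 0 knockout members, which ranged from 0.00804 to 3.68% and from 0 to 0.966%. At least 3 of its markers were found in 30 WT and 17 knockout members. The fibroblast list summed to 2139 and 1299.8 CPM, with 7 of 8 measured genes lower and 1 higher, and 89.2% of its knockout UMIs came from 1 cell. Their part in the lower members of the matrix and cholesterol lists was not tested.

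The 12 genes most clearly lower in knockout members were Naxe and genes abundant in fibroblasts (Pi16, Tnxb, Igfbp5, Igfbp6, Col14a1 and Clec3b) or macrophages (Cd68, Fcrls, Ccl9, Lgals3 and Spp1). Lgals3 was at 692 and 88.9 CPM in the members and 2283 CPM outside the WT gate, and Cd68 at 169 and 8.39 CPM and 403 CPM. Pi16 was at 141 and 3.35 CPM in 5 WT and 2 knockout members. Tnxb, Fcrls and Ccl9 had 0 UMIs in knockout members, at least 10.6-fold, 10.1-fold and 9.65-fold lower.

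The 12 most clearly higher genes were Myog, Fabp7, Cdkn1c, Acta2, Rbp7, Ptn, Isg15, Stmn1, Pmf1, Rsad2, H1f5 and Kif20a, and several rested on few cells. Fabp7 and Myog, a muscle regulator, had 0 UMIs in WT members and were at least 7.25-fold and 13.3-fold higher, from 1 and 4 cells. Ptn had 79.2% of its knockout UMIs in 1 cell, and Cdkn1c, a cell cycle inhibitor at 48.6 and 280.1 CPM, had 56.9%. Acta2, the smooth muscle actin, was found in 4 WT and 8 knockout members. Pmf1, a kinetochore protein, was spread more widely, at 6.94 and 53.7 CPM in 3 WT and 17 knockout members, and Kif20a, a mitotic kinesin, was at 2.31 and 33.5 CPM in 1 WT and 9 knockout members.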

How the data were processed

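The authors deposited raw counts, as 1 matrix of UMI counts per gene and barcode for each library, not normalized. The Cell Ranger version is 2.1.1 in the submitters' processing notes but 5.0.0 per the file headers. Genome build and annotation: not given in the sources used here. Groups follow the genotype label.

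Barcodes with at least 200 genes and at most 10% mitochondrial UMIs were kept (13837 of 14035 WT, 9164 of 9392 knockout). Called doublets (Scrublet in scanpy 1.11.5; 10.7% and 5.26% of kept barcodes, expected 11.2% and 7.51%) stayed in. The members, 21 gene lists and 11 lists of other cell types were chosen with earlier results of these data known. UMIs were summed per library and class. CPM ratios have exact conditional and shares exact Clopper-Pearson intervals, for counting error only. For log2 values, 0.5 was added to each count. The 76 rows with a duplicated symbol were left out. Cells are not replicates, so no test was run. Named were the rule's genes, list genes of at least 20 CPM, and the 12 highest and 12 lowest genes by the bound nearest 1, without ribosomal, mitochondrial, haemoglobin, sex-linked and clone-named genes. A gene that this rule also names is not reported here. The ratios and calls were run on simulated Poisson counts with known folds. These hold no spread between cells, so they check the calculation only. Alternatives were thinning, stricter rules and filters, TMM scaling (edgeR 4.0.16, R 4.3.3), means over cells, and removal of doublets or of cells with other markers. Python 3.11.15, scipy 1.17.1, pandas 2.3.3 and matplotlib 3.10.9 were used.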

Additional observations from a re-analysis of the deposited data

Results flagged for a closer look

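For 2 listed genes the ratio of tip-like over other endothelial cells pointed in opposite directions in the libraries, and the difference between the libraries was not tested. Rgs5, a pericyte gene, was lower in WT (0.442-fold, 0.325 to 0.593) and higher in the knockout (1.81-fold, 1.36 to 2.41), with 51.8% of its WT and 71.4% of its knockout UMIs in 1 member each. The knockout direction of Rgs5 turned to a log2 ratio of -2.19 after thinning to 1000 UMIs, -0.75 with at least 3 tip markers and -0.018 as a mean over cells. Thbs1, which encodes the angiogenesis inhibitor thrombospondin-1, was higher in WT (1.91-fold, 1.39 to 2.63) and lower in the knockout (0.629-fold, 0.387 to 0.989), at 185 and 41.9 CPM in 24 WT and 11 knockout members. Against deep cells, Thbs1 was at 1.23-fold, 0.876 to 1.75 in WT, and after thinning its WT log2 ratio was -1.28. In the thinned setting, former members still in the gate counted among the other endothelial cells. Over all 6011 genes measured in both libraries, 13 had such opposite directions.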

How the results depend on the processing

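Counts of genes and the tip-like share depended most on depth and on cells with other markers; the cause of each change was not tested. The share ratio was 0.34 with cells thinned to 2000 UMIs and 0.48 among barcodes of at least 5000 UMIs, and the other 8 settings kept an interval that held 1. Thinning to 1000 UMIs, with the rule applied anew, left 14 WT and 5 knockout members. Former members still in the gate then counted among the other endothelial cells. For knockout over WT, 369 genes were higher and 504 lower, against 14 and 6 after that thinning, 243 and 221 with at least 3 tip markers, and 117 and 113 without barcodes with 3 markers of another cell type; without members with an arterial or venous gene 250 were lower. For tip-like over other cells in WT (230 and 566), thinning gave 73 and 24, and 270 were lower without barcodes with other markers and 252 against deep cells. In the knockout (360 and 447), thinning gave 35 and 11, removal of barcodes with other markers 208 and 171, and a minimum of 50 CPM 221 and 239.

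Of the list medians under all settings, 240 were classed as unchanged and 20 as moved. Among the moved was cell cycle for knockout over WT, at 0.45 without barcodes with other markers. Of the gene values under all settings, 2397 kept their side of the limits, 170 were no longer counted and 34 reversed. For knockout over WT (log2), Apoe was at 0.92 thinned and 0.58 without barcodes with other markers, Top2a at -0.042 without them, and Klf4 at 0.15 with at least 3 tip markers. For tip-like over other cells in WT, thinning gave H2ac8 -2.26, Car4 1.31, Ccnd1 -0.77, Thbs1 -1.28 and Unc5b 0.49, and deep cells Cxcl12 0.069, Notch1 0.014 and Timp3 0.28. In the knockout, thinning gave H2ac8 -1.01, Lxn -0.42, Tagln2 -0.54, Pclaf -0.16, Myl1 0.33, Acta1 0.14, Mmrn1 0.31, Apoe 0.28, Car4 0.42, Hes1 0.26, Hmgb2 -2.22, Lamb2 0.037, Rgs5 -2.19 and Timp3 0.73. At least 3 tip markers gave H2ac8 -0.88, Apoe 0.42, Hes1 0.35 and Rgs5 -0.75, removal of barcodes with other markers Adm -0.45, Lamb2 0.0033 and Ube2c -0.41, and the mean over cells Rgs5 -0.018.

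The settings of at least 5000 UMIs, without the member of most UMIs, without members with an arterial or venous gene, and the 5 further draws were chosen after seeing the data. No paired analysis was possible because each genotype has 1 library.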
